A study of Rattus norvegicus with 18 samples.

Results

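Neuropeptides are cut from larger precursor proteins, packed into dense-core granules and released on sustained firing, and they act on G protein-coupled receptors. In the hippocampus most of these precursors are made by subsets of GABAergic interneurons, while dynorphin, and to a lesser degree enkephalin, is made by dentate granule cells. Seizures are known to shift several of these transcripts in rodents, neuropeptide Y among the best known. The precursors described here were Npy, Sst, Pdyn, Penk, Cck, Tac1, Vip, Trh, Crh and Gal, chosen by gene symbol. Of the 10 genes listed, 9 had a probe, 1 each, out of 12393 genes named on the array, and no probe was named Trh.

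Hippocampal RNA of single male adult Wistar rats was hybridized to 1-colour CodeLink Rat Whole Genome arrays, 18 in all. The 3 pilocarpine groups were rats that went through status epilepticus (SE), taken on day 3 (D3, 5 rats) or day 7 (D7, 5 rats) counted from SE, or shortly after their first spontaneous seizure (Chronic, 5 rats). These rats received scopolamine methylnitrate before pilocarpine, a muscarinic agonist, and diazepam to stop SE, and only survivors of SE were taken. The saline rats (Control, n = 3) had none of these drugs, and the 3 arrays, 1 for each of the times, were pooled, so that drug exposure and SE cannot be told apart. Rats are named here by the numbers in the labels.

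Values are the normalized intensities of the authors, in which the median spot of an array lies near 1, and levels of different genes are not compared. A gene was called when its adjusted p, over all 33800 probes tested, was under 0.05 and its change at least 2-fold. Errors of log2 fold changes are standard errors. In whole tissue, fewer cells of a type and less RNA per cell cannot be told apart.

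At D3 the precursors of neuropeptide Y and galanin were higher than in Control, by 2.63-fold and 2.83-fold. At D7 the tachykinin precursor Tac1 was lower, by 2.48-fold, and in Chronic the prodynorphin gene Pdyn was lower, by 4.64-fold. These were 2 of 9 members called higher at D3 and 0 lower, where 3.42% of all probes were called higher and 1.17% lower. At D7 0 were called higher and 1 lower, against 3.06% and 0.432% of all probes. In Chronic 0 were called higher and 1 lower, against 2.28% and 0.612% of all probes. The members whose groups did not overlap with Control numbered 5 at D3, 4 at D7 and 2 in Chronic, where 33.3%, 24.4% and 23.1% of all probes did not overlap. The median log2 fold change over the 9 members was -0.24 at D3, -0.37 at D7 and -0.61 in Chronic, beside -0.12, -0.06 and -0.08 over all probes tested.

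**Figure D1:**
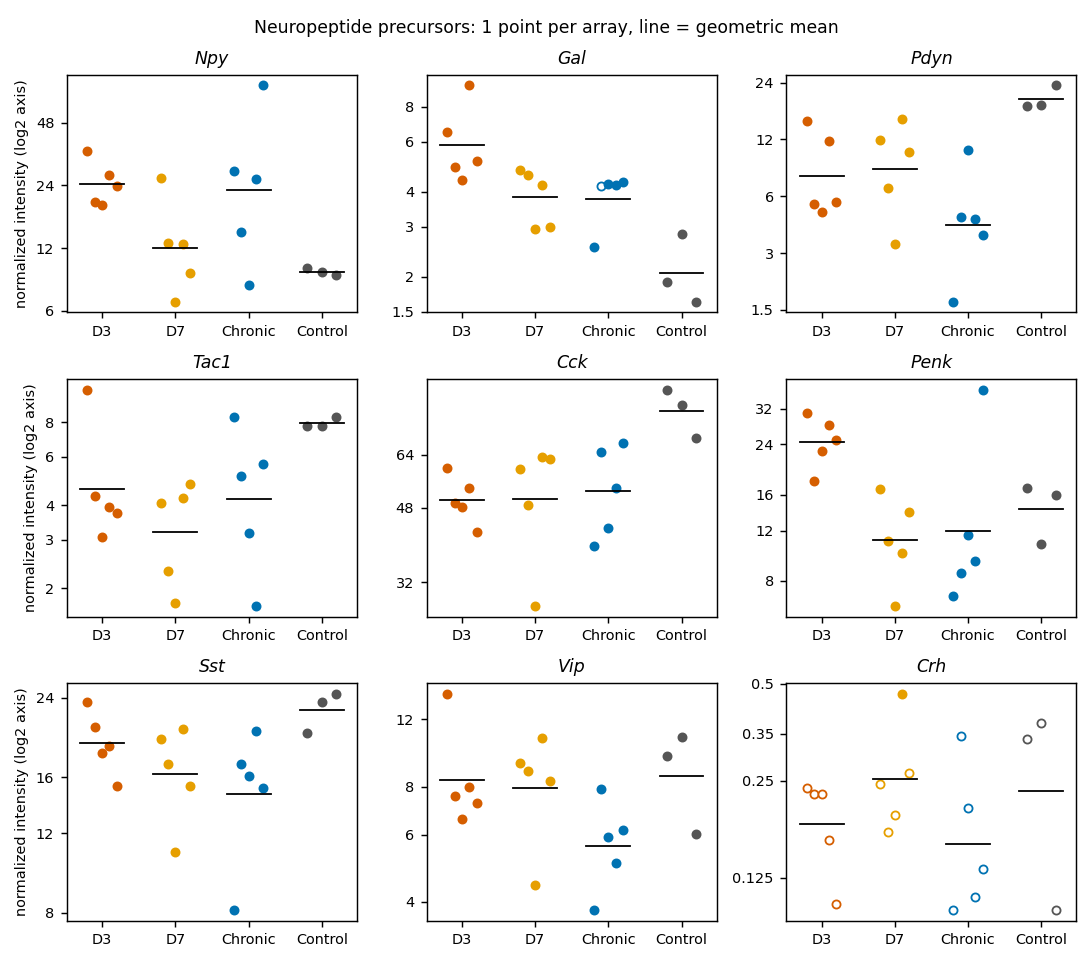
Normalized intensity (log2 axis) of the 9 precursors on each array, with D3, D7 and Chronic left of Control. Points are arrays, filled where the spot was flagged good and open otherwise, and lines are geometric means of the values used. The 5 D3 arrays of Npy lie between 19.3 and 35.2, all above the 3 Control arrays, and the 5 Chronic arrays of Pdyn lie between 1.66 and 10.5, all below them.

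To place the 4 called members in the genome, the 250 bases before each annotated transcription start are given from RefSeq (GRCr8), read 5′ to 3′ on the coding strand. They lie at chr4:80211861-80212110 on the plus strand for Npy, chr1:210084573-210084822 on the minus strand for Gal, chr3:137366504-137366753 on the minus strand for Pdyn and chr4:36645333-36645582 on the plus strand for Tac1. Capitals mark TATAA on the coding strand and TGACG, the core of the cAMP response element, on either strand (CGTCA where it reads on the other strand).
Npy: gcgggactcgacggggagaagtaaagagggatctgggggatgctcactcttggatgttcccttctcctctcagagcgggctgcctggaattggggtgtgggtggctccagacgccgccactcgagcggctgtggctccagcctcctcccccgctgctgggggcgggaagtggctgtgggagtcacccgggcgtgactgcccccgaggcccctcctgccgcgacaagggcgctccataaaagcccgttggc
Gal: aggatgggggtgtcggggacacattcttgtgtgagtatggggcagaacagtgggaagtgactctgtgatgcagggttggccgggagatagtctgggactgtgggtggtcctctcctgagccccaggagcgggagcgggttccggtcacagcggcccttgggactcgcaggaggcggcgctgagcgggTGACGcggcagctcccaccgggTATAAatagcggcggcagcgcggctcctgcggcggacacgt
Pdyn: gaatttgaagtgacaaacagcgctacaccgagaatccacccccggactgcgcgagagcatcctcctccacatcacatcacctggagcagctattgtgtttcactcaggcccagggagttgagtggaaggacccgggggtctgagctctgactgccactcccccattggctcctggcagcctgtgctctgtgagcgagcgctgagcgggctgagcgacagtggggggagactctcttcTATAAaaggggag
Tac1: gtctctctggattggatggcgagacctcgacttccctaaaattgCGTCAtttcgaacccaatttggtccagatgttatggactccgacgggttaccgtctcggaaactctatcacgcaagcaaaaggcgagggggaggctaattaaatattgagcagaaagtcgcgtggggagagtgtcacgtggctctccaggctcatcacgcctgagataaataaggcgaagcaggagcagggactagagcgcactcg

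TGACG began 63 bases before the start of Gal and lay 206 bases before that of Tac1, and TATAA began 41 bases before the start of Gal and 13 before that of Pdyn. The Npy window held neither. Over all 33469 promoters of the table, 18.2% held TGACG on either strand in these 250 bases and 16.7% held TATAA on the coding strand. The whole element TGACGTCA and the AP-1 motif TGANTCA, searched on both strands and held by 1.59% and 6.34% of all promoters, were in none of the 4 windows. Such a match is a description of letters and not of a bound site. Of the other listed genes, Sst, Vip and Trh had a promoter in the table.

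Neuropeptide Y is an inhibitory peptide of hippocampal interneurons. The Npy probe (GE19864) read 35.2, 19.9, 19.3, 26.8 and 23.8 in D3 rats 12, 11, 13, 14 and 15. It read 26.1, 12.7, 6.65, 12.5 and 9.08 in D7 rats 31 to 35, 28.0, 14.4, 7.99, 25.8 and 72.4 in Chronic rats 41 to 45, and 9.62, 9.26 and 8.89 in Control rats 26, 36 and 47. All D3 rats lay above all Control rats, whereas D7 and Chronic rats lay on both sides of them and rat 45 stood far above every other rat. The log2 fold change was 1.40 ± 0.48 at D3 (adjusted p = 0.0421), 0.38 ± 0.48 at D7 (adjusted p = 0.635) and 1.30 ± 0.48 in Chronic (adjusted p = 0.0748). The D3 call was lost without any 1 of D3 rats 12, 11, 14 and 15 or of the Control rats, with adjusted p up to 0.107, with log2 fold changes from 1.26 to 1.47 in those fits. In Chronic the call was gained without rat 43 (1.67, adjusted p = 0.013).

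The spread of Npy among rats was the widest of the 8 members above background in Chronic, where the highest array was 9.05 times the lowest, beside 1.82 times at D3, 3.93 times at D7 and 1.08 times in Control. In D7 and Chronic, though not at D3, the rat highest for Npy was also the highest for activity-regulated genes such as Fos, Arc and Egr1, a list of 22 genes of which 20 were measured. The mean log2 difference of that list from Control was 0.79, 0.15, -0.49, 0.95 and 1.11 in Chronic rats 41 to 45, and 1.08, -0.32, -0.53, 0.02 and -0.32 in D7 rats 31 to 35. The rat highest for both was 45 in Chronic and 31 at D7, and the rat lowest for both was 43 in Chronic and 33 at D7. At D3 the list stood at -0.27, -0.47, 0.12, 0.18 and -0.17 in rats 12, 11, 13, 14 and 15, beside -0.12 to 0.13 in Control. All 5 D3 rats had Npy above every Control rat, and rat 12, with the most Npy, ranked 4 of 5 on the list. Of the 20 genes measured, 6 were above 0 at D3 and 14 below. Fos (1.19 ± 0.43), Inhba (1.10 ± 0.64) and Ptgs2 (0.93 ± 0.43) were above, each with all D3 rats above all Control rats. The other probe of Fos stood at -0.04 ± 0.28 at D3. Of the list, 0 genes were called at D3 or D7 and 3 were called higher in Chronic, namely Inhba (2.28 ± 0.64, adjusted p = 0.0222), Fos (1.68 ± 0.43, adjusted p = 0.015) and Ptgs2 (1.38 ± 0.43, adjusted p = 0.0364). The other probe of Fos was not called in Chronic (0.49 ± 0.28, adjusted p = 0.264). Each of the 3 calls was lost without at least 1 Control rat, Fos without rat 36 and Inhba and Ptgs2 without any of the 3. Ptgs2 was also lost without Chronic rat 41, 44 or 45. The time from the last seizure was not known for each rat, and its part in these values was not tested.

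**Figure D2:**
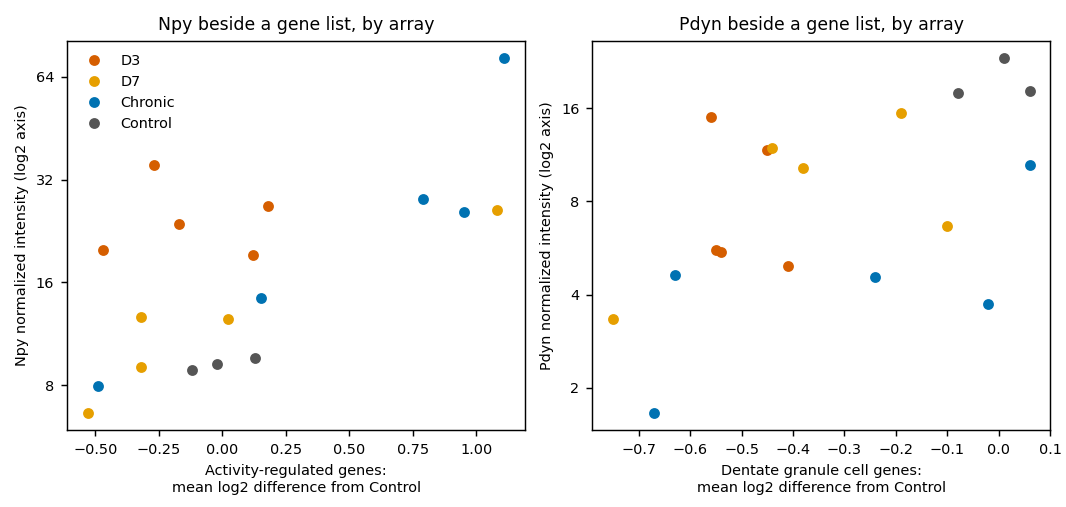
Normalized intensity (log2 axis) of Npy and of Pdyn on each array against the mean log2 difference from Control of the activity-regulated genes and of the dentate granule cell genes. Chronic rat 45 has the most Npy (72.4) and the highest activity list (1.11). D3 rats have Npy above Control with the list mean between -0.47 and 0.18. Chronic rat 41 has the least Pdyn (1.66) with the dentate list at -0.67.

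Of 8508 genes with a spot flagged good on all 18 arrays, those closest to Npy by the Pearson correlation of log2 values were Maff (0.94), Acvr1c (0.90) and Upp1 (0.90). Over deviations from the group means, which take out differences between groups, they were Inpp5a (0.94), Actn1 (0.93) and Maff (0.93). Maff encodes a small basic leucine zipper protein. These correlations are a description over arrays that share 4 groups, and rat 45 carries much of the range.

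Galanin is an inhibitory peptide that reaches the hippocampus of normal rats largely in ascending axons. Gal (GE19571) read 6.5, 4.90, 4.39, 9.53 and 5.14 in D3 rats 12, 11, 13, 14 and 15, and 4.79, 4.58, 2.94, 4.21 and 2.99 in D7 rats 31 to 35. It read 2.55, 4.27, 4.22 and 4.32 in Chronic rats 41, 43, 44 and 45 and 1.91, 2.82 and 1.63 in Control rats 26, 36 and 47. The spot of Chronic rat 42 was flagged as contaminated and left out. All D3 and all D7 rats lay above all Control rats, and of the Chronic rats only rat 41 lay among them. Gal rose by 1.5 ± 0.25 on the log2 scale at D3 (adjusted p = 0.000474), and this call held under all 32 alternative settings run. At D7 it was 0.89 ± 0.25 (adjusted p = 0.0212) and in Chronic 0.86 ± 0.26 (adjusted p = 0.0339), both short of the 2-fold limit, which they passed without Control rat 36 (1.11 and 1.09). Chronic against D3 differed by -0.64 ± 0.23 (adjusted p = 0.157) with no overlap, and D7 against D3 by -0.61 ± 0.22 (adjusted p = 0.218).

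The genes most like Gal over its 17 arrays were Atraid (0.85), Slc14a1 (0.84), a urea transporter, and Igsf11 (0.84), and over deviations from the group means Nars1 (0.83), Kat5 (0.80) and Mdh2 (0.79). No gene was in both sets. The galanin receptors Galr1 and Galr2 were not called in any comparison with Control, but Galr2 passed the adjusted p under 2-fold at D3 (0.72 ± 0.16, adjusted p = 0.00452) and D7 (0.54 ± 0.17, adjusted p = 0.0355). Galr1 stood at -0.18 at D3.

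Pdyn encodes the precursor of the dynorphins, which granule cells release and which act on the kappa opioid receptor. Pdyn (GE1208393) read 15, 5.48, 4.95, 11.7 and 5.56 in D3 rats 12, 11, 13, 14 and 15, and 11.9, 6.67, 3.34, 15.4 and 10.3 in D7 rats 31 to 35. It read 1.66, 4.63, 10.5, 4.56 and 3.73 in Chronic rats 41 to 45, against 18, 18.2 and 23.2 in Control rats 26, 36 and 47. All 15 pilocarpine rats lay below all 3 Control rats, and rat 41 had the lowest value. The log2 fold change was -1.36 ± 0.50 at D3 (adjusted p = 0.055), -1.23 ± 0.50 at D7 (adjusted p = 0.0917) and -2.21 ± 0.50 in Chronic (adjusted p = 0.00721). The Chronic call held without any 1 rat. The D3 value passed the threshold without rat 12 (-1.60, adjusted p = 0.0307) or rat 14 (-1.51, adjusted p = 0.0483) and without any 1 of D7 rats 33 and 34 and Chronic rats 41 and 43, and the D7 value without rat 34 (-1.44, adjusted p = 0.0493). Leaving out a D7 or Chronic rat kept the D3 fold at -1.36 and altered only the spread shared over the groups and the adjustment. Chronic against D7 differed by -0.99 ± 0.43 (adjusted p = 0.447) and Chronic against D3 by -0.85 ± 0.43 (adjusted p = 0.327), so a difference between the times was not shown.

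Beside Pdyn, 8 of 11 dentate granule cell genes other than the members were measured, with a median log2 fold change of -0.58 at D3, -0.45 at D7 and -0.25 in Chronic. Their mean difference from Control was -0.67, -0.63, 0.06, -0.24 and -0.02 in Chronic rats 41 to 45. Rat 41 was lowest and rat 43 highest for both Pdyn and this list, whereas rat 45 had little Pdyn with the list at the Control level. At D7 rat 33 was lowest for both (list at -0.75), while the list was highest in rat 32 (-0.10), which ranked 4 of 5 for Pdyn. At D3 rat 12 was highest for Pdyn and lowest on the list (-0.56), and rat 13 was lowest for Pdyn and highest on the list (-0.41). Rat 14 ranked 2 on both, and the D3 list means lay close together, all between -0.56 and -0.41. Of the list, 1 gene was called higher and 2 lower at D3, 0 at D7, and 0 higher and 1 lower in Chronic. Calb1, the granule cell calcium buffer calbindin, was lower at D3 (-1.35 ± 0.28, adjusted p = 0.00218) and in Chronic (-1.27 ± 0.28, adjusted p = 0.00658), and Plk5 was lower at D3 (-1.31 ± 0.28, adjusted p = 0.00241). Pter was higher at D3 (1.17 ± 0.22, adjusted p = 0.000987), and Prox1, the granule cell transcription factor, stood at -0.76 at D3, where its adjusted p was 0.00413, and at 0.51 in Chronic (adjusted p = 0.0561). The part of granule cell numbers in the Pdyn values was not tested. Oprk1, the kappa opioid receptor gene, was not called, at -0.34 at D3, -0.45 at D7 and -0.22 in Chronic. The genes most like Pdyn over 18 arrays were Rab26 (0.92), a small GTPase of secretory vesicles, Crtac1 (0.91) and Ly6h (0.89), and Rab26 (0.92), Cpne5 (0.89) and Crtac1 (0.88) over deviations from the group means.

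Tac1 encodes the precursor of substance P and neurokinin A. It (GE19888) read 10.5, 4.32, 3.07, 3.93 and 3.76 in D3 rats 12, 11, 13, 14 and 15, and 4.06, 2.32, 1.77, 4.24 and 4.78 in D7 rats 31 to 35. It read 8.37, 5.12, 3.18, 1.73 and 5.65 in Chronic rats 41 to 45, against 7.74, 7.72 and 8.35 in Control rats 26, 36 and 47. D7 rats all lay below Control rats, and so did all D3 rats but rat 12 and all Chronic rats but rat 41. The log2 fold change was -0.79 ± 0.43 at D3 (adjusted p = 0.206), -1.31 ± 0.43 at D7 (adjusted p = 0.0395) and -0.91 ± 0.43 in Chronic (adjusted p = 0.161). The D7 call was lost without rat 32, rat 33 or any Control rat, with adjusted p from 0.0691 to 0.104, and under quantile normalization (-1.15, adjusted p = 0.107). The genes most like Tac1 were Cbln2 (0.86), a synaptic organizer, Slc35g2 (0.83) and Vstm2b (0.82), and over deviations from the group means Bad (0.86), Nppa (0.83) and Cbln2 (0.83). The neurokinin receptor gene Tacr1 was not called, at -0.37 at D3, -0.39 at D7 and -0.38 in Chronic. Tacr2 and Tacr3 were not called either. Tacr3 passed the adjusted p under 2-fold at D3 (-0.99 ± 0.14, adjusted p = 0.000129), and stood at -0.29 at D7 and -0.32 in Chronic. Tacr2 did so at D7 (-0.34 ± 0.10, adjusted p = 0.0287).

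**Figure D3:**
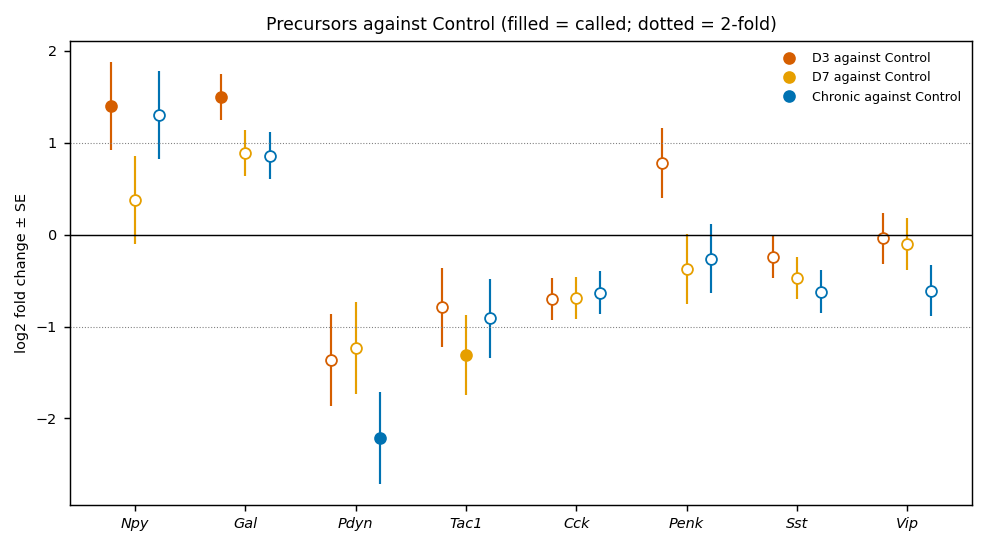
Log2 fold change (points) and standard error (bars) of the 8 precursors above background in D3, D7 and Chronic against Control. Filled points were called and dotted lines mark 2-fold. Npy and Gal at D3 (1.40 and 1.5), Tac1 at D7 (-1.31) and Pdyn in Chronic (-2.21) are filled.

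Penk encodes the enkephalin precursor. It read 30.8, 17.9, 22.7, 28.1 and 24.9 in D3 rats 12, 11, 13, 14 and 15, and 16.7, 11, 6.55, 9.99 and 13.9 in D7 rats 31 to 35. It read 7.10, 8.53, 11.6, 9.37 and 37.3 in Chronic rats 41 to 45, against 16.9, 10.8 and 16 in Control rats 26, 36 and 47. All D3 rats lay above all Control rats and all D7 rats, and in Chronic the 4 rats other than 45 lay below all D3 rats. Against Control the log2 fold change was 0.78 ± 0.38 at D3 (adjusted p = 0.162), -0.37 ± 0.38 at D7 (adjusted p = 0.553) and -0.26 ± 0.38 in Chronic (adjusted p = 0.716).

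Between the times, 0 members were called, where 0.322% of all probes were called for D7 against D3, 0.743% for Chronic against D3 and 0.0503% for Chronic against D7. By limma at an unadjusted p under 0.05 the members numbered 3, 3 and 2 of 9, where 12.7%, 16.7% and 10.1% of all probes had such a p. Penk came nearest, at -1.14 ± 0.33 for D7 against D3 (adjusted p = 0.12) and -1.03 ± 0.33 for Chronic against D3 (adjusted p = 0.108). Both were called without Chronic rat 45, at -1.14 (adjusted p = 0.00978) and -1.44 (adjusted p = 0.00108). For D7 against D3 that rat is in neither group, so the fold was unchanged and only the spread shared over the 4 groups and the adjustment differed. Rat 45 also had the most Npy and Cck of its group, and was highest of the Chronic rats for 4 of the 8 members above background. Npy differed by -1.02 ± 0.42 between D7 and D3 (adjusted p = 0.3).

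Cck encodes cholecystokinin, made by a class of basket cells and other neurons. Its probe is listed by the platform annotation under both Cck and Fn1, and its own reference transcript is that of Cck, so the assignment is less sure than for the others. Cck read 59.6, 49.3, 48.1, 53.4 and 42 in D3 rats 12, 11, 13, 14 and 15, and 59.4, 48.6, 28.2, 63.2 and 62.5 in D7 rats 31 to 35. It read 39.1, 64.8, 42.9, 53.5 and 68.4 in Chronic rats 41 to 45, against 91.2, 84.0 and 70.1 in Control rats 26, 36 and 47. All 15 pilocarpine rats lay below all Control rats. The log2 fold change was -0.70 ± 0.23 at D3 (adjusted p = 0.0329), -0.69 ± 0.23 at D7 (adjusted p = 0.0398) and -0.63 ± 0.23 in Chronic (adjusted p = 0.0669), under 2-fold at each time.

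Sst and Vip mark separate classes of interneurons, the first of dendrite-targeting cells and the second including cells that contact other interneurons. Sst lay between 15.3 and 23.5 at D3, between 10.9 and 20.5 at D7, and between 8.11 and 20.3 in Chronic, against 20.0 to 24.5 in Control, overlapping at each time. Its log2 fold change was -0.24 ± 0.23, -0.47 ± 0.23 and -0.62 ± 0.23 at the 3 times, with adjusted p = 0.504, 0.166 and 0.0773. Vip lay between 6.57 and 14 at D3, between 4.43 and 10.7 at D7, and between 3.81 and 7.88 in Chronic, against 6.01 to 10.8 in Control. Its log2 fold change was -0.04 ± 0.28, -0.10 ± 0.28 and -0.61 ± 0.28, with adjusted p = 0.947, 0.838 and 0.151. Neither gene passed the test at any time.

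Of 18 other genes of GABAergic interneurons 13 were measured, with a median log2 fold change of -0.42 at D3, -0.51 at D7 and -0.42 in Chronic. At D3 Pvalb (-1.20 ± 0.20, adjusted p = 0.000359) and Calb2 (-1.22 ± 0.32, adjusted p = 0.0091), which encode the calcium buffers parvalbumin and calretinin, were lower, and Maf was higher. Maf was higher at D7 too, and 0 of the list were called in Chronic. Maf is also expressed by microglia, whose markers were higher, with 9, 11 and 9 of 12 genes called at D3, D7 and Chronic, and their part in the Maf values was not tested.

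Crh, the corticotropin-releasing hormone gene, was near background. Its spot was flagged low on 17 of the 18 arrays, with values from 0.0994 to 0.466, so that no fold is given. A further probe, which the array file describes as similar to the Trh gene but which was left unnamed by the annotation, was outside the rule. It lay between 0.237 and 0.458 at D3, between 0.270 and 0.488 at D7, and between 0.404 and 0.669 in Chronic, against 0.461 to 0.587 in Control, and was not called (-0.73 ± 0.26 at D3, adjusted p = 0.05).

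Some rats were high or low for many precursors at once. D7 rat 33 was lowest of its group for 8 of the 8 members above background, Chronic rat 41 was lowest for 6 and D3 rat 12 was highest for 7. In rat 33 pyramidal neuron genes stood at -1.28 from Control and dentate genes at -0.75, each the lowest of the 18 arrays. Its microglia genes stood at 2.61, the highest of the 18 arrays, and its choroid plexus genes at 2.60. In rat 41 the choroid plexus genes stood at 2.61 and the dentate genes at -0.67, and in rat 12 the pyramidal genes stood at -1.13 and the choroid plexus genes at -1.73. Other than the pyramidal, dentate and microglia values of rat 33, these values had near equals in other rats. Chronic rat 44, lowest for 1 member, also had choroid plexus genes at 2.61. D3 rat 11, highest for 0, also had pyramidal genes at -1.13, and Chronic rat 42, lowest for 0, had dentate genes at -0.63. The part of these cell types in the peptide values was not tested. Without rat 33 the count of members called at D7 was 0, and without rat 41 that in Chronic was 2.

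Fold changes of the receptors of these peptides were mostly below 0. Of 26 receptor genes 23 were measured, and those with a log2 fold change below 0 were 19 at D3, then 20 at D7 and again 19 in Chronic. The list's median was -0.35, -0.33 and -0.28, beside -0.12, -0.06 and -0.08 over all probes tested. Some of the 23 were at background, Npy2r and Sstr5 flagged good on 0 arrays and Npy4r and Oprd1 on 1. Called were 1 lower at D3 (Cckbr, the brain cholecystokinin receptor) and 2 lower in Chronic (Npy1r and Sstr1), and 0 were called higher. At adjusted p under 0.05 with no limit on the fold, 4 were lower at each time, and 1, Galr2, was higher at D3 and at D7. Of all 33800 probes, 4815, 4021 and 3311 were lower by this rule at D3, D7 and Chronic, and 2673, 2097 and 1643 higher. Cckbr ranged from 2.19 to 2.87 at D3, against 6.23 to 6.87 in Control (-1.32 ± 0.19, adjusted p = 0.000143), and its other probe was lower too (-1.54 ± 0.36, adjusted p = 0.00487). This call held without any 1 rat.

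Npy1r, a receptor of neuropeptide Y, ranged from 2.45 to 4.86 in Chronic, against 5.98 to 8.32 in Control (-1.19 ± 0.24, adjusted p = 0.00422), with no overlap. Its other probes gave 0.30 ± 0.67 and -0.09 ± 0.14 and were not called. The probe at 0.30 was flagged good on 0 arrays of each group and so is at background. The probe at -0.09 was flagged good on all arrays and disagrees with the called probe. Sstr1, a somatostatin receptor, ranged from 0.727 to 2.16 in Chronic, against 3.62 to 5.25 in Control (-1.68 ± 0.39, adjusted p = 0.00933), and was not called without Control rat 26. Trhr, the receptor of thyrotropin-releasing hormone, fell short of 2-fold by the brighter probe at each time (-0.73 ± 0.13, -0.74 ± 0.13 and -0.70 ± 0.13). Its dimmer probe was called lower at D3, D7 and Chronic (-1.48 ± 0.30, -1.49 ± 0.32 and -1.52 ± 0.30).

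Of 16 genes of peptide processing and granules 12 were measured, and 0 were called. Log2 fold changes were below 0 for 11 genes at D3, for 10 genes at D7 and for 11 genes in Chronic. Their medians were -0.36, -0.41 and -0.36, and 6, 6 and 5 of the genes below 0 passed an adjusted p of 0.05 under 2-fold. Lower at that adjusted p with no fold limit were 4815, 4021 and 3311 of all 33800 probes. Under quantile normalization the medians were -0.18, -0.18 and -0.15, with 7, 8 and 8 genes below 0. The list includes Pcsk2, a convertase that cleaves precursors (-0.45 at D3), and the granule proteins Chga (-0.51 at D3) and Scg5 (-0.72 at D3). Of 8 peptide-degrading and binding proteins only Mme, neprilysin, was called, lower at D3 (-1.0 ± 0.31, adjusted p = 0.0283). That value came from spots flagged good on 7 of 18 arrays and was lost without any 1 of D3 rat 11 and Control rats 36 and 47. It was also lost under 7 of the other settings, quantile normalization and scaling at percentile 75 among them. Another probe of Mme was not called (-0.59 ± 0.40, adjusted p = 0.327), but it was at background, flagged good on 0 arrays of each group.

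**Figure D4:**
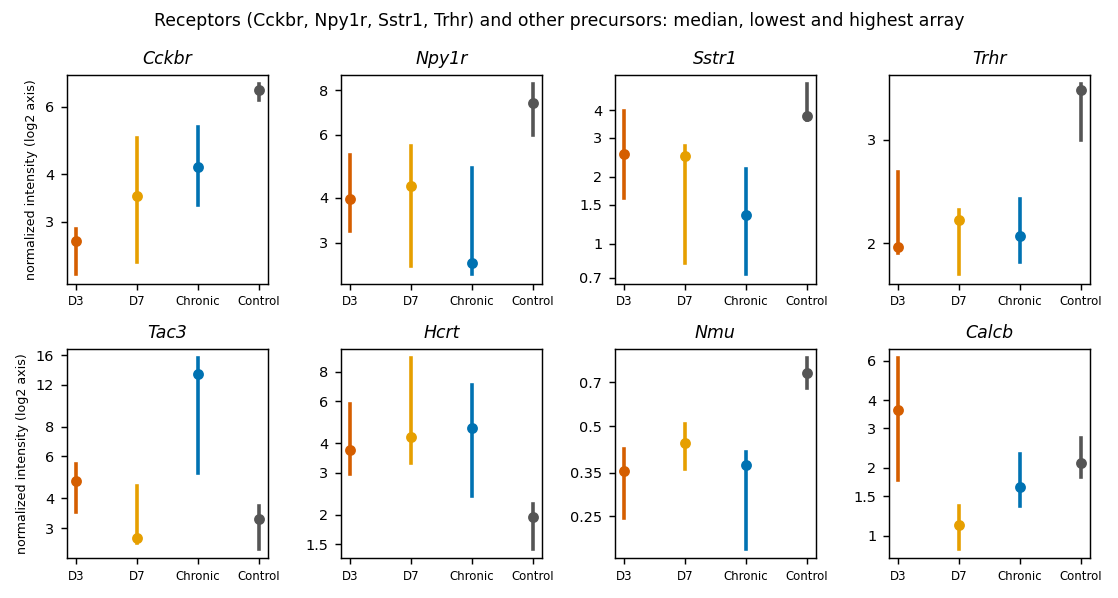
Normalized intensity (log2 axis) of 4 receptors and 4 other peptide precursors, each by its brightest probe. Points are medians and bars run over the arrays of a group, with D3, D7 and Chronic left of Control. Tac3 in Chronic (5.13 to 15.5) lies above Control, and Cckbr at D3 (2.19 to 2.87) below it.

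Of 49 other peptide precursors 41 were measured, and 1, 1 and 3 were called higher and 2, 0 and 1 lower at D3, D7 and Chronic. Tac3, which encodes neurokinin B, ranged from 5.13 to 15.5 in Chronic with a median of 13.3, against 2.46 to 3.71 in Control (1.71 ± 0.30, adjusted p = 0.00161), with no overlap. It was higher in Chronic than at D3 (1.18, lost without D3 rat 12 or Chronic rat 41) and than at D7 (1.63), while Tac1 differed by -0.13 and 0.40 in those comparisons. All of these Tac3 calls were lost by the methods' t-test after Benjamini-Hochberg. Hcrt, the orexin precursor of hypothalamic neurons, lay between 2.96 and 5.84 at D3, between 3.31 and 9.10 at D7, and between 2.39 and 7.03 in Chronic, against 1.44 to 2.21 in Control, with log2 fold changes of 1.10, 1.39 and 1.16. Hcrt was called at each time, and each of these calls was lost without Control rat 26, the D3 and Chronic calls also without Control rat 36, the D3 call without D3 rat 15 and the Chronic call without Chronic rat 42. Thalamic and hypothalamic genes had a median of 0.20, 0.20 and 0.18, with 0 of 8 called, and went both ways. In Chronic Tcf7l2 (0.96 ± 0.27, adjusted p = 0.0229) and Hdc (0.94 ± 0.30, adjusted p = 0.0396) were above 0, as were Zic1 (1.25 ± 0.51, adjusted p = 0.105) and Lef1 (0.45 ± 0.19, adjusted p = 0.119). Gbx2 (-0.45 ± 0.11, adjusted p = 0.0114), Nkx2-1 (-0.21 ± 0.10, adjusted p = 0.161), Six6 and Sim1 were below 0 there, with Six6 flagged good on 0 and Sim1 on 1 of 18 arrays. The part of these cells in the Hcrt values was not tested.

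Nmu, neuromedin U, was lower at D3 (-1.19 ± 0.25, adjusted p = 0.00225) and in Chronic (-1.16 ± 0.25, adjusted p = 0.0054), and the Chronic call was lost without Chronic rat 42. Its signal was near background, from 0.246 to 0.42 at D3 and 0.195 to 0.411 in Chronic, against 0.671 to 0.843 in Control. Spots were flagged good on 3 of 5 D3 and 4 of 5 Chronic arrays, and both calls were lost with 0.5 added in place of the floor. Nppa, the atrial natriuretic peptide gene, was lower at D3 (-1.05 ± 0.24, adjusted p = 0.00375), a call lost without D3 rat 14, D3 rat 15 or Control rat 26. Adm, adrenomedullin, was called higher in Chronic (1.76 ± 0.46, adjusted p = 0.0169). Its spots were not well above background on any Control array, so the fold is given only as at least 1.83, under the 2-fold limit. It ranged from 0.239 to 1.02 in Chronic, flagged good on 3 of 5 arrays, and from 0.104 to 0.275 in Control, with overlap. The Adm call was lost without Control rat 26 or 47 and with 0.5 added in place of the floor. Calcb, a calcitonin gene-related peptide gene, was not called against Control, though at D7 it fell just short of 2-fold (-0.98 ± 0.27, adjusted p = 0.018). It was lower at D7 than at D3 (-1.68 ± 0.23, adjusted p = 0.00236), with a range of 0.875 to 1.36 at D7 and 1.76 to 6.16 at D3. Calcb was also lower in Chronic than at D3 (-1.06 ± 0.23, adjusted p = 0.0158), a call lost without D3 rat 14 or Chronic rat 43.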

How the data were processed

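The scanner files of 18 arrays were used. Per the paper's methods, the authors scanned with GenePix and processed the images with the CodeLink Expression Analysis software. The deposited normalized intensity is the spot minus its local background divided by 1 constant per array, from 97.3 to 189.8, on a linear scale. The deposited series table of intensities holds the same values in 33970 of 33993 lines. No counts exist, and the number of arrays limits the precision. Spots flagged good (G) or low (L) were kept and others, 0.699%, were set to missing. The share of G spots was 66.0% to 76.0% per array.

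Of 33849 gene probes, 16740 were named by the platform annotation, 205 by a RefSeq accession and 59 of those with several genes by their own accession, while 106 with several genes and 16739 with none were unnamed. Values were raised to percentile 1 of the positive values of the array and log2-transformed. Probes with 3 or more values in every pilocarpine group and 2 or more in Control were fitted with limma 3.58.1 in R 4.3.3 as 4 groups (eBayes with trend, no covariate), with Benjamini-Hochberg adjustment over all. Calculations were tested on simulated data. Where nothing says otherwise, n counts rats.

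Members were named with every probe of theirs. Of lists of receptors, processing, degradation, other precursors and activity-regulated genes, called genes were counted and up to 6 with the largest change named, as were the 3 genes most correlated with each called member. Trhr, Calcb, Tacr1, Tacr2, Tacr3, Npy2r, Npy4r, Sstr5, Oprd1, Oprk1, Galr1, Galr2, Pcsk2, Chga, Scg5 and the thalamic and hypothalamic genes were named beside these after their values were seen. The members and lists were chosen with earlier results of these data known. Where all spots of Control were flagged L, the bound on the fold used the lowest G signal of each array. The alternatives were quantile normalization, scaling at percentile 75, 0.5 added in place of the floor, no trend, array weights, leaving out dim probes, other choices of flags, probes and fold limit, the methods' t-test, the control array of the same time, and each array left out. A scan date block and a normexp correction were not run.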

Additional observations from a re-analysis of the deposited data

Results flagged for a closer look

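Of 30 sets of 4 or 5 arrays of 1 gene and group, 3 held an array far from the others by Dixon's criterion, and chance marks about 1 in 20 such sets. D3 rat 12 stood high for Tac1 (10.5) and for Vip (14), above all other D3 rats. Chronic rat 41 stood low for Gal (2.55).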

How the results depend on the processing

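No paired analysis was possible because no replicate number occurs in more than 1 group. Over 32 alternative settings, 1676 of 1722 values of the 54 fold changes of the members kept their side of the threshold, 21 lost the call, 25 gained it and 0 calls changed sign, while 68 uncalled values did. The count of members called at D3 against Control (2) was 1 with no trend and with the control array of the same time, 3 with 0.5 added, dim probes left out, array weights and the methods' t-test without adjustment, which added Pdyn, 3 with no fold limit, which added Cck, and 1 to 3 with 1 array left out. At D7 (1) it was 0 with quantile normalization, scaling at percentile 75, no trend, the control array of the same time and the methods' t-test after Benjamini-Hochberg, 3 with no fold limit, and 0 to 2 with 1 array left out. In Chronic (1) it was 0 with the control array of the same time and the methods' t-test after Benjamini-Hochberg, 2 with no fold limit, and 1 to 2 with 1 array left out. For D7 against D3 (0) it was 2 by the methods' t-test without adjustment, and 0 to 1 with 1 array left out. For Chronic against D3 (0) it was 1 with array weights and by the methods' t-test without adjustment, and 0 to 1 with 1 array left out. Scaling at percentile 75 moved the median log2 fold change of all probes by 0.11 at D7 and in Chronic, and the medians of the receptor, processing, dentate and interneuron lists stayed below 0 under it and under quantile normalization. With the control array of the same time, each group is set against 1 rat, and Npy at D3 (1.34, adjusted p = 0.32), Tac1 at D7 (-1.27, adjusted p = 0.303) and Pdyn in Chronic (-2.45, adjusted p = 0.193) kept their direction without passing the test. Set against that 1 rat, Tac3 in Chronic stood at 1.63, Npy1r at -1.41 and Sstr1 at -1.54. The methods' t-test after Benjamini-Hochberg lost the Chronic calls of Tac3, Hcrt, Npy1r, Sstr1, Calb1, Nmu, Adm, Fos, Inhba and Ptgs2. The normexp correction was not run because no separate local background column was used here, and a slide or scan date block was not run because no slide or date was used. The cause of the other changes was not tested. Signal near background limits Crh, and 3 Control arrays limit every comparison with Control.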
